A study of Mus musculus with 36 samples.

Results

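The change in muscle gene expression from 2.5 to 4 weeks of age was read from 4 two-colour microarrays, of 36 in the series, chosen because their labels pair those ages. On each array, RNA from the hindlimb muscle of a 2.5-week-old mouse and of a 4-week-old mouse of the same strain was hybridised together, each in its own dye, so the 4 arrays hold 8 mice. Of these arrays, 2 compared mdx mice and 2 compared control mice, and within each strain they are called A and B after the letter the labels give to the individuals. The full series joined 9 ages from 1 to 20 weeks in a loop for each strain, with 2 individuals per age and strain, and each individual's RNA was used on 2 arrays. Neighbouring steps of the loop therefore share animals with the 4 arrays described here.

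The mdx mice carry a premature stop codon in Dmd, the dystrophin gene, and came from a cross of C57Bl/10ScSn mdx/J with C57Bl/6NCrl and CBA/JCrl, whereas the control mice were C57Bl/10ScSnOlaHsd with an intact gene. No treatment is given for either group, and the sex of the animals and the hour of dissection are not given in the sources used here. Because the strains differ in genetic background as well as in dystrophin, a difference between them cannot be told apart from a difference in background.

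In this interval young mice normally pass from milk to solid food, and muscle growth shifts from the addition of nuclei by satellite cells, the resident stem cells, towards enlargement of existing fibres. Fibres without dystrophin tear easily, and in mdx mice the first wave of fibre necrosis, with entry of macrophages and other leukocytes, begins at about the age at which pups are weaned. Lists of genes of neonatal growth, blood vessels and the immune response were therefore followed beside those of the fibres.

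Every value below is a change from 2.5 to 4 weeks on the natural log scale, where 0.69 is a 2-fold change and a positive value means more RNA at 4 weeks, unless another interval is named. Each array value is the mean of 2 spots of the same long oligonucleotide, after the dye effect of the strain (its mean over 18 arrays) was subtracted. Such ratios hold no level, so the abundance of a transcript, the presence of muscle markers and the difference between mdx and control mice at one age could not be read from them, and the normalisation compresses changes of transcripts near background. A gene was called when limma's test over all 36 arrays, Benjamini-Hochberg adjusted over 6754 named probes, gave an adjusted p under 0.05, and every adjusted p below is from that fit unless an array is named as left out, when it is from the same fit without that array. Standard errors (SE) come from the same fit, with n = 2 arrays per strain. The spread behind these p-values was pooled over all 36 arrays. It holds array noise as well as differences between animals (variance ratio of animals over arrays 0.27).

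The 4 arrays had little in common over all probes. Pearson's correlation across the 6754 probes, which are not independent replicates, was 0.122 between the mdx arrays, -0.141 between the control arrays and between -0.0189 and 0.142 for the other 4 pairs. Duplicate spots correlated at 0.498 on array mdx A, the lowest of the 36 arrays, and at 0.605 to 0.709 on the other 3 of this step. Control B had the widest values, with a standard deviation of 0.354 against 0.293 to 0.314 on the other 3. Medians of fibre gene lists also differed between the control arrays, as given below.

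Over both strains together, 21 of 6754 probes passed the test, which is 0.311% of all probes. Of these, 11 fell (0.163%), the largest falls being those of a potassium channel subunit, a cytokine signalling inhibitor, a calcium release channel and an imprinted growth gene, and 10 rose (0.148%), led by a chemokine, a clock output gene and an antigen presentation gene. All 21 lay on the same side of 0 on each of the 4 arrays, and 16 of the 21 did so on each of the 8 spots behind them. The exceptions at the level of single spots were Cd74, Dpep1, Meg3, Ryr3 and Tcap. Without mdx A the same test called 37 probes and without control B 36, of which 12 and 15 were among the 21. For comparison, 468 of all probes (6.93%) were above 0 and 503 (7.45%) below 0 on all 4 arrays, and past 0.35 on all 4 there were 14 higher (0.207%) and 11 lower (0.163%). Past 2-fold on all 4 arrays there were 1 higher, Ccl8 (0.0148%), and 2 lower, Dlk1 and Kcne1l (0.0296%).

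**Figure D1:**
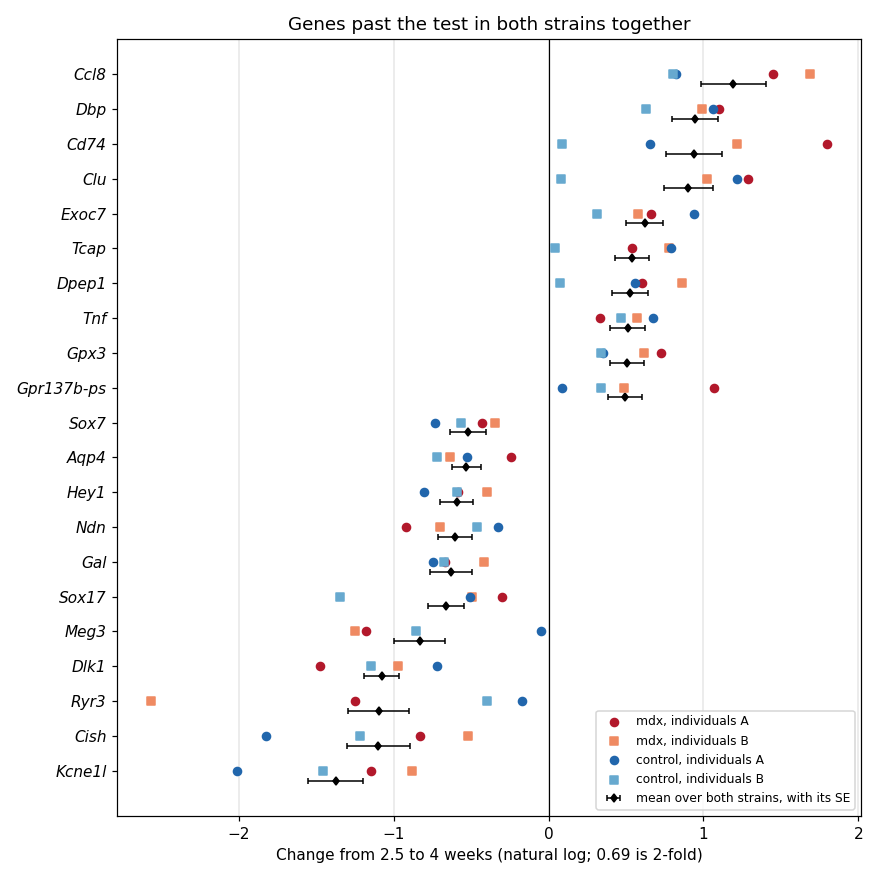
Change from 2.5 to 4 weeks (natural log, horizontal axis) for the 21 genes that passed the test over both strains, 1 gene per line. Circles and squares are the individual arrays, red for mdx and blue for control, and the black diamond with its bar is the mean over both strains with its SE. All points of a gene lie on one side of 0, with Cd74, Clu, Tcap and Dpep1 close to 0 on control B and Meg3 close to 0 on control A.

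Dlk1 and Meg3 are expressed from opposite parental copies of the same imprinted cluster on mouse chromosome 12, where RefSeq (GRCm38.p6) places the start of Meg3 77.7 kb beyond the end of Dlk1. Dlk1 encodes a transmembrane protein with EGF-like repeats that restrains differentiation of precursor cells, and Meg3 is a long non-coding RNA. The 250 bases before the RefSeq start of each are shown because both genes fell together, with searched motifs in capitals: CCAAT and TATAAA, elements of core promoters, TTTGAA, an element of cell cycle promoters, CAGCTG and CACGTG, which are E-boxes, and TTCNNNGAA, the form of a STAT site, each on both strands. The last pair was added to the search after the genes were known. Dlk1 lies at chr12:109452573-109452822 and the first of 2 listed starts of Meg3 at chr12:109540746-109540995, both on the plus strand.
Dlk1: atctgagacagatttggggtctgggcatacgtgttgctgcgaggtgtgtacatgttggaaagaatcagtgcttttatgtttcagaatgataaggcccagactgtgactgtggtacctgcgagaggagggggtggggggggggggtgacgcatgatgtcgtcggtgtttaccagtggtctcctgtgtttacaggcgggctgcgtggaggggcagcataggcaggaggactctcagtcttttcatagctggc
Meg3: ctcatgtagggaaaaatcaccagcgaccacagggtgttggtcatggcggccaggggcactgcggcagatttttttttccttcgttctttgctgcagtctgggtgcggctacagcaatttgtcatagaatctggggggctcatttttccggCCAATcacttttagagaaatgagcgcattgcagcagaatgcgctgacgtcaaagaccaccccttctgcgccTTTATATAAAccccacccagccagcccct
The Dlk1 window held no match to any of the 6 motifs. The Meg3 window held overlapping matches to TATAAA that begin 29 and 25 bases before the start and a match to CCAAT 100 bases before it. Over the 32851 promoters of the table, 12.4% held TATAAA and 33.8% held CCAAT in the same 250 bases.

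Dlk1 gave -1.48 and -0.97 on mdx arrays A and B and -0.72 and -1.14 on control arrays A and B. All 4 arrays were lower by more than 2-fold at 4 weeks and the strains overlapped. The mean was -1.08 (SE 0.11, adjusted p = 3.9e-06), a level at 4 weeks of 0.341 of that at 2.5 weeks, and the gene passed in each strain alone as well (adjusted p = 0.00026 in mdx and 0.012 in control). Its fall in control alone rested on control B, without which the adjusted p was 0.135, whereas the fall over both strains passed without each of the 4 arrays in turn.

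Meg3 gave -1.18 and -1.25 in mdx and -0.048 and -0.86 in control. It was lower on both mdx arrays by more than 2-fold and nearly level on control A. The mean was -0.83 (SE 0.17, adjusted p = 0.0155), and the difference between strains, -0.76 (SE 0.33), did not pass. Leaving out mdx B or control B ended the call (adjusted p = 0.113 and 0.141).

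Ndn, which encodes necdin, an imprinted growth suppressor also made in muscle precursors, gave -0.92 and -0.70 in mdx and -0.33 and -0.46 in control. Every array was lower at 4 weeks and the mdx arrays lay below both control arrays, as for 16.1% of all probes. Its mean was -0.60 (SE 0.11, adjusted p = 0.0082, 0.0517 without mdx B). Dlk1, Meg3 and Ndn were the 3 called members among 36 probes of a list of neonatal growth and imprinted genes, 0.163% of all probes being called lower. The median of that list was 0.020 over both strains, beside -0.0051 over all probes, and 6 of its probes were below 0 on all 4 arrays (16.7% of the list against 7.45% of all probes), the other three being Cdkn1c, Peg3 and Rasgrf1. Mest was below 0 on 3 arrays, at -0.65, -0.53 and -0.87, and near 0 on control A.

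Lower values of these genes were not confined to this interval. In the previous step, from 1 to 2.5 weeks, Dlk1 changed by -1.11 in mdx and -1.54 in control, Ndn by -0.82 and -1.47, and Meg3 by -0.15 and -0.93. In the next step, from 4 to 6 weeks, all 3 genes lay between -0.48 and 0.035 in the 2 strains. By 8 weeks Dlk1 stood at -1.24 (SE 0.21) in mdx and -1.55 (SE 0.21) in control relative to 2.5 weeks.

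Kcne1l, an X-linked gene for an accessory subunit of voltage-gated potassium channels, had the largest mean fall. It gave -1.15 and -0.88 in mdx and -2.01 and -1.46 in control. All 4 arrays were lower by more than 2-fold, and both mdx arrays lay above both control arrays, as for 14.8% of all probes. The mean was -1.38 (SE 0.18, adjusted p = 0.00011), a level at 4 weeks of 0.253 of that at 2.5 weeks, and it passed without each array in turn. In control alone it passed (-1.74, SE 0.25, adjusted p = 0.0016) and in mdx alone it did not (-1.02, adjusted p = 0.0967). The difference between strains, 0.72 (SE 0.35), did not pass.

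Cish encodes an inhibitor of cytokine receptor signalling that is switched on by STAT5, the factor through which growth hormone acts. Its promoter is shown for that reason, at chr9:107296409-107296658 on the plus strand (GRCm38.p6).
Cish: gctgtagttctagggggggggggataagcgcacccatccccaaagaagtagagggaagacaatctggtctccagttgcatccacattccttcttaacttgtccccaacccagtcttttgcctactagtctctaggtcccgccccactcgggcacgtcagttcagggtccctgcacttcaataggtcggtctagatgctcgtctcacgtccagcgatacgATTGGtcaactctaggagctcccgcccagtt
The capitals mark CCAAT, 31 bases before the start, and no TTCNNNGAA was found in this window, a form present in 7.02% of all promoters. Cish gave -0.83 and -0.52 in mdx and -1.82 and -1.22 in control. Both control arrays were lower than both mdx arrays, as for 14.8% of all probes, and all 4 were below 0. The mean was -1.10 (SE 0.20, adjusted p = 0.0082, 0.0665 without control A), and in control alone it was -1.52 (SE 0.29, adjusted p = 0.0276, 0.173 without control A). From 4 to 6 weeks the values were positive again, 0.82 in mdx and 1.02 in control.

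Ryr3, a calcium release channel used by neonatal muscle fibres, gave -1.25 and -2.56 in mdx and -0.17 and -0.40 in control. The mean was -1.10 (SE 0.20, adjusted p = 0.0062), most of it from mdx, where the change was -1.91 (SE 0.28, adjusted p = 0.0011). The difference between strains, -1.62 (SE 0.39), had an adjusted p of 0.353. Both calls were lost without mdx B (adjusted p = 0.145 over both strains and 0.124 in mdx), and in control 1 of the 4 spots was above 0. The other 2 Ryr3 probes did not move with it, with changes of -0.25 and -0.10 in mdx and 0.20 and 0.020 in control. In control mice the large step of this probe lay earlier, at -2.22 from 1 to 2.5 weeks against -1.18 in mdx. Gal, the gene of the neuropeptide galanin, lay between -0.75 and -0.42 on the 4 arrays, with a mean of -0.63 (SE 0.14, adjusted p = 0.0408), and its call was lost whichever array was left out (adjusted p from 0.0949 to 0.135).

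Sox17, Sox7, Hey1 and Aqp4 also fell. Sox17 and Sox7 encode transcription factors of endothelial cells, Hey1 a repressor induced by Notch in vessels and in quiescent satellite cells, and Aqp4 the water channel of the fast fibre membrane, anchored there by the dystrophin complex. In whole muscle, fewer cells of a type and less RNA per cell cannot be told apart.

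Sox17 gave -0.30 and -0.49 in mdx and -0.51 and -1.35 in control. All 4 arrays were below 0, and control B was lowest. The mean was -0.66 (SE 0.12, adjusted p = 0.0062). The call was lost without mdx B (0.0517) or control B (0.0742), and the change in control alone, -0.93 (adjusted p = 0.0133), was not called without control B (adjusted p = 0.408). Sox7 gave -0.43, -0.35, -0.73 and -0.57 in the order mdx A, mdx B, control A, control B, with a mean of -0.52 (SE 0.12, adjusted p = 0.048). No call of Sox7 survived the loss of an array (adjusted p from 0.0624 to 0.181).

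Hey1 gave -0.59 and -0.40 in mdx and -0.80 and -0.59 in control. All 4 arrays were below 0, and mdx A and control B were alike. Its mean was -0.59 (SE 0.10, adjusted p = 0.0062), and 0.054 was the adjusted p without control A. Aqp4 gave -0.24 and -0.63 in mdx and -0.52 and -0.72 in control, a mean of -0.53 (SE 0.095, adjusted p = 0.0062, lost at 0.104 without mdx B).

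Sox17 was the only called gene among 22 probes of an endothelial list. The median of the list was -0.172 over both strains, beside -0.0051 over all probes, and lay below 0 on each array, at -0.125, -0.196, -0.096 and -0.18 for mdx A, mdx B, control A and control B. On all 4 arrays 9 members were below 0, 40.9% of the list against 7.45% of all probes, and 1, the VEGF receptor gene Flt1, was above. The 9 were Sox17, Sox18, Kdr, Tek, Cdh5, Cldn5, Emcn, Icam2 and Angpt2. With each array left out in turn, 10 to 11 members (45.5% to 50%) were below 0 on the other 3, against 10.7% to 18.3% of all probes. That count includes the 9 by construction. Apart from Sox17, the members nearest to the threshold were Icam2 (-0.46, SE 0.14, adjusted p = 0.23) and Emcn (-0.41, SE 0.13, adjusted p = 0.25), a cell adhesion protein and a sialomucin of the endothelial surface.

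The satellite cell list, which holds 30 probes, had 6 below 0 on all 4 arrays (20% against 7.45% of all probes). Notch1 was the 1 above (3.33% against 6.93%). Hey1 was called, and the other five were the Notch target Heyl, the Notch ligand gene Dll1, Notch3, the syndecan gene Sdc4 and the calcitonin receptor gene Calcr, a mark of quiescent satellite cells. Calcr gave -0.34, -0.70, -0.53 and -0.80, with a mean of -0.59 (SE 0.14) and an adjusted p of 0.055. The median of the list was -0.010 over both strains, and the change was above 0 for 15 of the 30 probes in mdx and 12 in control. A separate list of 30 Notch, Bmp and neuregulin probes had 0 calls and a median of 0.00099. That list does not hold Hey1, Heyl, Dll1 or Notch3, so its counts do not cover their falls, while Notch1 stands in both lists. On all 4 arrays 3 probes of the separate list were above 0 (10% against 6.93% of all probes), Gdf9, Vav1 and Notch1. The 2 below (6.67% against 7.45%) were the Bmp targets Id1 and Id3. Id1 had a mean of -0.61 (SE 0.22) and Id3 of -0.70 (SE 0.24), the latter with -2.04 on control B.

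Among the 10 genes that rose, 3 belong to the immune response. Ccl8, a chemokine that draws monocytes and is made by resident macrophages, gave 1.45 and 1.69 in mdx and 0.83 and 0.80 in control. All 4 arrays were higher by more than 2-fold, and both mdx arrays lay above both control arrays, as for 14.8% of all probes. The mean was 1.19 (SE 0.21, adjusted p = 0.0062), 3.29-fold, and the change in mdx alone was 1.57 (SE 0.30, adjusted p = 0.0181), 4.80-fold. The difference between strains, 0.75 (SE 0.42), did not pass. Without mdx B the adjusted p over both strains was 0.0517, and that in mdx alone was 0.054 without mdx A and 0.166 without mdx B.

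Cd74, the invariant chain that guides antigen loading of MHC class II molecules in macrophages, dendritic cells and B cells, gave 1.80 and 1.22 in mdx and 0.65 and 0.086 in control. The mdx arrays were both above the control arrays, as for 14.8% of all probes, and control B was near 0. Its mean was 0.94 (SE 0.18, adjusted p = 0.0132) and its change in mdx 1.51 (SE 0.26, adjusted p = 0.0071), 4.52-fold, with a difference between strains of 1.14 (SE 0.37, adjusted p = 0.715). The mean lost its call without mdx A (adjusted p = 0.117) or control A (0.123), and the change in mdx lost its call without mdx A (0.155).

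Tnf, the gene of the cytokine TNF, gave 0.33 and 0.57 in mdx and 0.67 and 0.47 in control. The strains overlapped, and the mean was 0.51 (SE 0.11, adjusted p = 0.0452), with adjusted p from 0.0614 to 0.185 when each array was left out. The promoters of Ccl8, at chr11:82114935-82115184 on the plus strand, and Tnf, at chr17:35202008-35202257 on the minus strand (GRCm38.p6), are shown as the called members of the chemokine and cytokine list.
Ccl8: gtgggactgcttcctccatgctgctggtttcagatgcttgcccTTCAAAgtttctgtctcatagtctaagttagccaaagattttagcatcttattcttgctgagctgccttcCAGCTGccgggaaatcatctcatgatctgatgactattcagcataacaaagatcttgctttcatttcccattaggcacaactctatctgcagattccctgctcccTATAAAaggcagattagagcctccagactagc
Tnf: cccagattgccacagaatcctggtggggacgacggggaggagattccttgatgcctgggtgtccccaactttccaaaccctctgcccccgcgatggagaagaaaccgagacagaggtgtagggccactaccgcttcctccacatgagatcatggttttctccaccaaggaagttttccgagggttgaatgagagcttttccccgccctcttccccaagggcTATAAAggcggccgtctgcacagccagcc
Each held a TATAAA match close to the start, 32 bases before it in Ccl8 and 29 in Tnf. Ccl8 also held TTTGAA, 207 bases before the start and present in 16% of all promoters, and CAGCTG, 137 bases before it and present in 13%.

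Ccl8 and Tnf were the 2 calls among 64 probes for chemokines and cytokines, both of them rises. In that list 11 probes were above 0 on all 4 arrays (17.2% against 6.93% of all probes) and 4 below. Ccl5, Ccl11, Cxcl2, Cxcl10, Cxcl13, Cxcl14 and Il1b were among the 11. The interferon and MHC list of 24 probes had 6 above 0 on all 4 arrays (25%) and 0 below, with Cd74 called. The other five were Psmb8, Irf8, B2m, Ifit1 and Ifit3, and Psmb8, a subunit of the immunoproteasome, had the largest mean of these (0.40, SE 0.14, adjusted p = 0.32).

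Dbp, a transcription factor driven by the circadian clock, gave 1.10 and 0.99 in mdx and 1.06 and 0.63 in control. The mdx and control values overlapped. The mean was 0.94 (SE 0.15, adjusted p = 0.0019), 2.57-fold, it passed without each array in turn, and the difference between strains was 0.20 (SE 0.29). Arntl, which encodes the clock activator BMAL1, gave -0.55, -0.89, -0.51 and -0.54, a mean of -0.62 (SE 0.20, adjusted p = 0.257). Nfil3, a repressor that binds the same sites as Dbp, gave -0.61, -0.45, -0.43 and -0.29, a mean of -0.44 (SE 0.11, adjusted p = 0.093). Neither passed, although both were below 0 on each array.

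Of 17 probes in the clock list, Dbp was the 1 called and the 1 above 0 on all 4 arrays (5.88% against 6.93% of all probes). Arntl, Nfil3 and Per3 were the 3 below (17.6% against 7.45%). The hour of dissection is not given in the sources used here and its part in these values was not tested. At later ages the Dbp level relative to 2.5 weeks was 0.41 in mdx and 0.53 in control at 6 weeks. It was 0.91 (SE 0.28) against -0.80 (SE 0.28) at 8 weeks and 0.72 against 0.67 (SE 0.25 in each) at 20 weeks. The promoter of Dbp, at chr7:45704997-45705246 on the plus strand (GRCm38.p6), is shown as that of the gene with the smallest adjusted p among those that rose.
Dbp: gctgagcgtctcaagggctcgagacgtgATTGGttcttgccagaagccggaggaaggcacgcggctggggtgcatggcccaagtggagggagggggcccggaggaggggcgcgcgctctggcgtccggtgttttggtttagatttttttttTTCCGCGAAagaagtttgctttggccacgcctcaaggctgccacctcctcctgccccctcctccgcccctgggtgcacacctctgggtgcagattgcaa
It held CCAAT 222 bases before the start and TTCNNNGAA 99 bases before it, and no CACGTG, the E-box bound by clock activators, which 6.02% of all promoters held.

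Of the remaining genes that rose, Clu, the gene of the secreted chaperone clusterin, gave 1.29 and 1.02 in mdx and 1.21 and 0.077 in control. It was high on 3 arrays and near 0 on control B. The mean was 0.90 (SE 0.16, adjusted p = 0.0062, lost at 0.0787 without control A), and a second Clu probe gave changes of -0.067 in mdx and 0.052 in control. Tcap, which encodes telethonin, a cap of titin at the Z-disc, gave 0.54 and 0.78 in mdx and 0.79 and 0.044 in control, with a mean of 0.54 (SE 0.11, adjusted p = 0.0268). Its call was lost without mdx A, mdx B or control A (adjusted p = 0.057, 0.144 and 0.228).

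Gpx3, a secreted glutathione peroxidase, had a mean of 0.51 (SE 0.11, adjusted p = 0.0349) and lay between 0.34 and 0.72 on the 4 arrays. Exoc7, a subunit of the exocyst that tethers vesicles to the membrane, had a mean of 0.62 (SE 0.12, adjusted p = 0.0125), and Dpep1, a membrane dipeptidase, of 0.52 (SE 0.12, adjusted p = 0.048). Gpr137b-ps, listed as a pseudogene whose probe may also bind its parent transcript, had a mean of 0.50 (SE 0.11, adjusted p = 0.0452). The calls of Gpx3, Exoc7 and Dpep1 held only without control B among the 4 arrays left out in turn, and that of Gpr137b-ps was lost without any one of them. The adjusted p reached 0.138 for Gpx3, 0.139 for Exoc7, 0.234 for Dpep1 and 0.268 for Gpr137b-ps.

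Some increases seen on all 4 arrays did not pass the test. Past 0.35 on all 4 arrays, and named here after their values were seen, were also Pcx, Me1, Mup3, Orm1 and Hsd11b1, with means of 0.98, 0.68, 0.89, 0.86 and 0.67 and adjusted p from 0.0872 to 0.503. Pcx and Me1 encode enzymes that feed lipid synthesis in fat and liver, Hsd11b1 the enzyme that regenerates active glucocorticoid, Orm1 an acute phase protein and Mup3 a major urinary protein from a family of near-identical genes, so its probe may bind several. Ckm, the creatine kinase of muscle, gave 0.63, 0.79, 0.89 and 0.69, with a mean of 0.75 (SE 0.27, adjusted p = 0.409). Hal, Ier3, F3, Fn3k and Ccr7 met the same limit without passing. Tst, a mitochondrial sulfurtransferase, came closest to the threshold among those of the 14 that did not pass, at a mean of 0.52 and an adjusted p of 0.0521.

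In mdx mice alone 14 probes passed (0.207%), 8 higher (0.118%) and 6 lower (0.0888%). Of the 14, 9 were also called over both strains: Ccl8, Cd74, Clu, Dbp and Gpr137b-ps among those that rose and Dlk1, Meg3, Ndn and Ryr3 among those that fell. The other five were Mga, Ripk4 and S100a4, which rose, and Polm and Prps1, which fell. All 4 mdx spots lay on the same side of 0 for 12 of these genes, the exceptions being Polm and Ripk4. Past 2-fold on both mdx arrays, whatever the control arrays did, were 19 probes higher (0.281%) and 8 lower (0.118%), and on both control arrays 4 higher (0.0592%) and 7 lower (0.104%). Prps1, a nucleotide synthesis gene, rested on a single spot, at -2.77 on the second spot of mdx A against -0.14 to -0.56 on the other 3 mdx spots. The count was 71 when every array was set to the same spread, with 13 of the 14 among them. Without mdx A 50 probes were called and without mdx B 23, of which 4 and 5 were among the 14.

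S100a4, a calcium-binding protein of macrophages, fibroblasts and other motile cells, gave 1.35 and 1.17 in mdx and 0.34 and -0.30 in control. The mdx arrays were both more than 2-fold higher and the control arrays lay on either side of 0. The change in mdx was 1.26 (SE 0.26, adjusted p = 0.0253), 3.52-fold, and in control 0.022 (SE 0.26), with a difference of 1.24 (SE 0.36) that did not pass (adjusted p = 0.633). Its call in mdx was lost without mdx A or mdx B (adjusted p = 0.227 and 0.12). From 4 to 6 weeks S100a4 changed by another 0.49 in mdx and -0.16 in control.

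With S100a4, 3 more probes were past 2-fold on both mdx arrays and within 0.35 of 0 on both control arrays (4 of 6754, 0.0592%), a pattern that is a description and no test. Clec7a, the macrophage receptor for fungal glucans also known as dectin, gave 1.30 and 1.62 in mdx and -0.14 and 0.048 in control, and the difference of 1.51 had an SE of 0.90. Cd52, a surface glycoprotein of lymphocytes and myeloid cells, gave 1.45 and 0.91 against 0.026 and -0.081, a difference of 1.21 (SE 0.46). Adam5 rested on 1 of its 2 spots, which gave 1.62 and 2.06 in mdx while the other gave -0.20 and -0.17. None of the differences of these 4 genes passed (adjusted p from 0.633 to 0.999).

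Pbk, a kinase of dividing cells, and Pus1, a pseudouridine synthase, were the 2 probes with the opposite pattern (0.0296%), lower in mdx. Pbk gave -0.92 and -0.72 in mdx and 0.11 and -0.21 in control, a difference of -0.77 (SE 0.28). In control mice Pbk had already changed by -1.18 from 1 to 2.5 weeks, against -0.15 in mdx. For Pus1 the second spot gave -1.46 and -1.13 in mdx and the first 0.04 and -0.39.

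The macrophage and myeloid list of 56 probes had no call in any of the 4 comparisons, where 0.118% of all probes rose in mdx. On all 4 arrays 12 of its probes were above 0 (21.4% against 6.93% of all probes) and 2 below. On both mdx arrays 32 of the 56 were above 0 (26.6% of all probes were) and 9 below. The medians were 0.124 in mdx, 0.038 in control and 0.105 for the difference, so the list as a whole stood far below the values of Ccl8 or S100a4. The macrophage markers Adgre1, Cd68, Aif1, C1qa and Itgb2 were among the 12, and Itgb2, the integrin chain of leukocytes, had a mean of 0.50 (SE 0.24). Lyz1 was above 0 on all 4 arrays and Lyz2 below 0 on all 4, although the lysozymes of macrophages are close copies whose probes may bind both transcripts.

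The next step of the loop gave larger values in mdx for some of these genes and smaller ones for others. From 4 to 6 weeks the median of the macrophage list was 0.443 in mdx and 0.0037 in control, and that of the interferon and MHC list 0.441 and 0.016. Clec7a gave 1.62 and Cd52 1.27 in mdx in that step, against 0.23 and 0.37 in control. Ccl8 (0.57), Cd74 (0.66), S100a4 (0.49) and Timp1 (0.30), the last of them a metalloproteinase inhibitor, had smaller values in mdx from 4 to 6 weeks than from 2.5 to 4 weeks, when they were 1.57, 1.51, 1.26 and 1.33. No test of one step against the other was made, because both steps use the animals of 4 weeks. Ccl8, Cd74 and S100a4 had also been named for their calls in the earlier step, so their smaller later values cannot be read as a slowing.

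**Figure D2:**
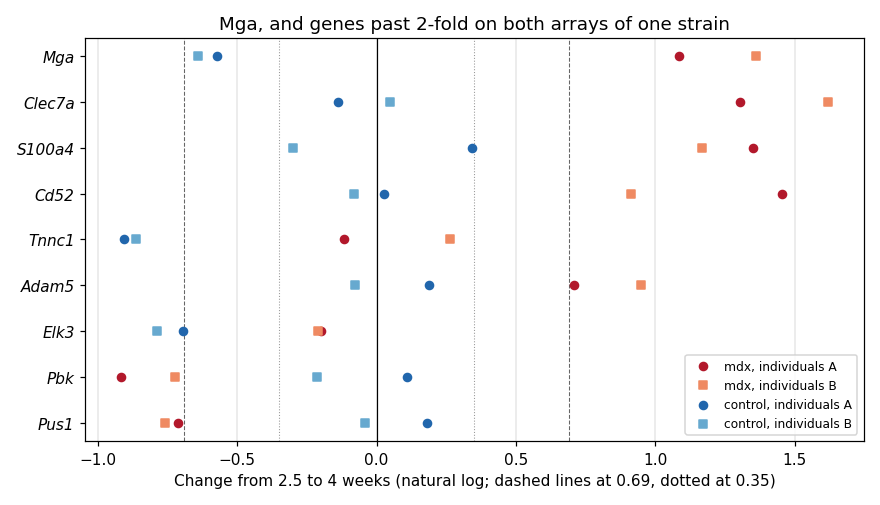
Change from 2.5 to 4 weeks (natural log, horizontal axis) on each array for Mga and for the 8 probes past 2-fold (dashed lines) on both arrays of one strain and within 0.35 of 0 (dotted lines) on both arrays of the other. Clec7a, S100a4 and Cd52 lie between 0.91 and 1.62 in mdx (red) and between -0.30 and 0.34 in control (blue).

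In control mice alone 4 probes passed, all of them lower (0.0592%): Cish, Dlk1, Kcne1l and Sox17, described above. All 4 control spots were below 0 for each of these genes. With every array set to the same spread the count was 0 by limma, with 235 probes at an unadjusted p under 0.05, and it was 30 without control A and 36 without control B, of which 3 and 2 were among the 4. Past 2-fold on both control arrays and within 0.35 of 0 on both mdx arrays there were 0 probes higher and 2 lower (0.0296%), Tnnc1 and Elk3. Tnnc1, the troponin C of slow and cardiac muscle, gave -0.12 and 0.26 in mdx and -0.91 and -0.86 in control, a difference of 0.96 (SE 0.42). Elk3, an ETS repressor of endothelial cells, gave -0.20 and -0.21 against -0.69 and -0.79, a difference of 0.54 (SE 0.24). Neither difference passed (adjusted p = 0.999 for both).

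Tnnc1 belongs to a slow fibre list of 12 probes, in which no gene was called. The median of the list was -0.125 in mdx and -0.618 in control, and 9 of 12 probes were below 0 on both control arrays (20.8% of all probes were). In mdx 6 of the 12 were below 0 on both arrays (31.4% of all probes were). Across all 4 arrays 4 were below 0 (33.3% against 7.45% of all probes) and 0 above. The change was above 0 for 2 of the 12 in each strain, so lower values were not particular to control. Array medians of the list were -0.373 and -0.016 in mdx and -0.244 and -0.63 in control. Single arrays dominated the largest members: Tnni1, the slow troponin I, was -2.51 on control A against -0.16 on control B, and Csrp3, a LIM protein of the Z-disc, -0.16 against -2.50. The slow troponin T gene Tnnt1 was more even, at -1.74 and -1.05 in control and -0.43 and 0.31 in mdx, a difference of 1.33 (SE 0.64). Muscles of the hindlimb differ in their share of slow fibres, and the muscles taken from each animal are not given in the sources used here.

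The difference between strains passed for 1 of 6754 probes (0.0148%), that of Mga, a MAX dimerisation partner that represses genes through E-box and T-box sites. Mga gave 1.09 and 1.36 in mdx and -0.57 and -0.64 in control. It was above 0 on both mdx arrays and below 0 on both control arrays, as were 292 probes in all (4.32%), while 387 (5.73%) had the opposite pattern, and all 8 of its spots were on the side of their strain. The difference was 1.83 (SE 0.27, adjusted p = 0.0031), with a change of 1.22 (SE 0.19, adjusted p = 0.0025) in mdx, 3.40-fold, and of -0.61 (SE 0.19, adjusted p = 0.422) in control. It passed without each array in turn (adjusted p from 0.0027 to 0.0296), when 7 to 23 probes passed, 23 without mdx A and 22 without control B, and its change in mdx alone missed the threshold without mdx B (0.0525). From 4 to 6 weeks Mga changed by -0.62 in mdx and -0.035 in control. At 8 weeks it stood at 0.45 (SE 0.26) in mdx and -0.94 (SE 0.26) in control relative to 2.5 weeks. At 20 weeks the levels were -0.33 and -0.91 (SE 0.23 in each).

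Both orientations of the dyes occur among these arrays, with the 4-week sample in channel 1 in mdx and the 2.5-week sample in channel 1 in control. A dye effect left after the subtraction would add to the difference between strains and cancel in their mean. For Mga the dye effect subtracted was -0.14 in mdx and -0.19 in control, and with no dye term the adjusted p of its difference was 0.336.

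Dmd itself showed no detectable change. Its 3′ probe gave 0.003 and 0.27 in mdx and 0.033 and -0.16 in control, with a difference of 0.20 (SE 0.24), and the probe for the retinal isoform Dp260 gave -0.12 and 0.19 against 0.14 and 0.16. These changes over age do not check the labels, which would need the levels of the strains at one age. Among 39 probes of the dystrophin complex and costamere Tcap and Aqp4 were called, in opposite directions, beside 0.311% of all probes, and the list median was -0.0064.

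**Figure D3:**
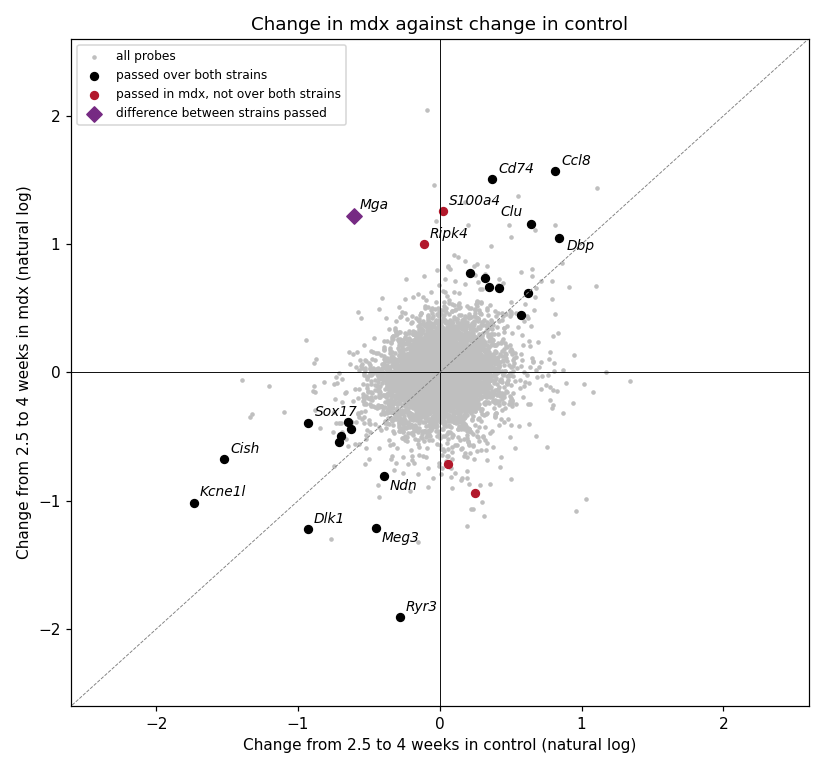
Change from 2.5 to 4 weeks in mdx (vertical axis) against that in control (horizontal axis), both natural log, for 6754 probes (grey). Black points passed over both strains, red points in mdx without passing over both strains, and the purple diamond is Mga, the gene whose difference between strains passed. The dashed line marks equal change, and Mga lies in the upper left, higher in mdx and lower in control.

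Genes of fibre metabolism mostly differed between the control arrays. The 41 probes for oxidative phosphorylation and the citric acid cycle had medians of -0.064 and -0.085 on mdx A and B but 0.073 on control A and -0.344 on control B, and the proteasome and ubiquitin list of 28 probes had 0.159 and -0.262 on the control arrays. The sarcomere, triad and calcium handling list did the same, at 0.139 and -0.36. Within the oxidative list 5 probes were below 0 on all 4 arrays (12.2% against 7.45% of all probes) and 0 above. The 5 were Cox7a1, Cox7a2, Cox6a2, Sdhb and Atp5g1, the largest being Cox7a2 (-0.45, SE 0.13, adjusted p = 0.18).

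Fatty acid and ketone use was steadier, with array medians of -0.012 and -0.087 in mdx and -0.102 and -0.118 in control. Of its 29 probes 8 were below 0 on all 4 arrays (27.6% against 7.45%) and 0 above, and no gene was called. The 8 were Cpt1a and Cpt1b, which admit fatty acids to mitochondria, the matrix enzymes Ech1, Eci1 and Crat, the malonyl-CoA decarboxylase Mlycd, the carrier Fabp3 and Pdk4, which spares glucose when fat is burned. Ech1 gave -0.50, -0.42, -0.55 and -0.44, a mean of -0.48 (SE 0.12, adjusted p = 0.102). The list median was -0.067. When 1 array was left out, 9 to 11 members (31% to 37.9%) were below 0 on the other 3, against 10.7% to 18.3% of all probes. That count cannot fall below 8, because it includes the 8 below 0 on all 4 arrays. From 1 to 2.5 weeks the median of the same list was 0.155 in mdx and -0.048 in control.

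The fast fibre and glycolysis list of 30 probes held 0 calls. On all 4 arrays 4 members were above 0 (13.3% against 6.93% of all probes), among them Ckm and the glycogen synthase gene Gys1. Glucose uptake and insulin signalling had 3 of 38 above (7.89%, near the share of all probes) and 1 below (2.63% against 7.45%), with 0 calls. The glucocorticoid, thyroid and fasting list had 4 of 32 above 0 on all 4 arrays (12.5% against 6.93% of all probes). It had 3 below (9.38% against 7.45%) and a median of -0.019 over both strains. Its member Glul, the glutamine synthetase gene, gave 0.76 and 0.90 in mdx and 0.30 and 0.37 in control, a mean of 0.58 (SE 0.14) and an adjusted p of 0.059.

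The cell cycle list of 69 probes held 0 calls. On both mdx arrays 33 were below 0 and 12 above, where 31.4% and 26.6% of all probes were, and on both control arrays 16 were below and 17 above. The largest difference between strains was that of Ccnb2, the cyclin B2 gene, at -0.95 and -0.38 in mdx and 0.67 and 0.20 in control (-1.10, SE 0.43). In control mice the list median had been -0.329 from 1 to 2.5 weeks, against 0.013 in mdx. The extracellular matrix and fibroblast list of 75 probes held S100a4 as its one call, in mdx, and its medians on the control arrays were 0.202 and -0.205. Timp1, an inhibitor of matrix proteases made in injured muscle, gave 1.35 and 1.31 in mdx and 0.44 and -0.077 in control, a difference of 1.15 (SE 0.59).

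**Figure D4:**
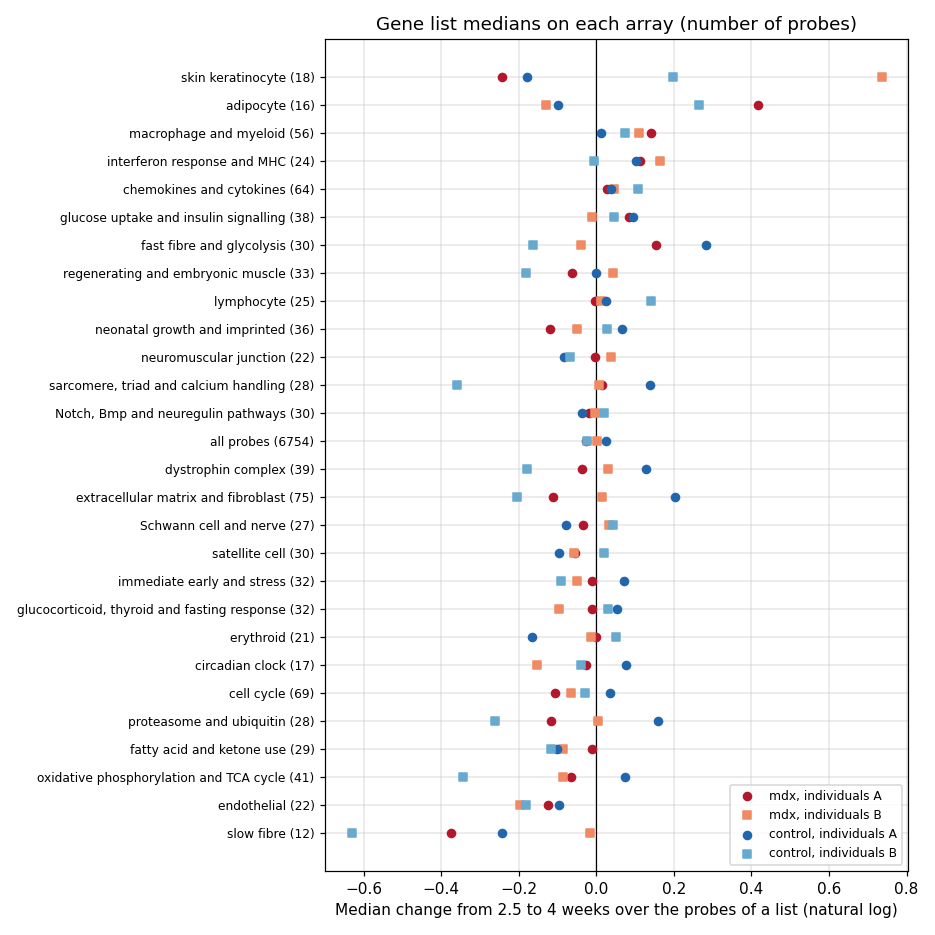
Median change from 2.5 to 4 weeks (natural log, horizontal axis) over the probes of each gene list on each of the 4 arrays, red for mdx and blue for control, with the number of probes in parentheses. The endothelial medians lie together below 0 (-0.196 to -0.096), whereas keratinocyte, fat and fibre lists differ between arrays of the same strain.

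Marker lists of other tissues differed between arrays of the same strain, where differences between animals and array noise cannot be told apart. The keratinocyte list of 18 probes had medians of -0.244 on mdx A, 0.735 on mdx B, -0.179 on control A and 0.197 on control B, with Krt10 at -0.76, 1.76, -0.17 and 0.83. Ripk4, a kinase of epidermal keratinocytes that passed in mdx (1.00, SE 0.18, adjusted p = 0.0132), gave 0.67 and 1.33 in mdx and -0.097 and -0.13 in control, and lost its call without mdx B (adjusted p = 0.241). The part of skin in that call was not tested. Adipocyte markers had medians of 0.418 on mdx A, -0.13 on mdx B, -0.098 on control A and 0.265 on control B, and the brown fat genes Ucp1 and Cidea gave -1.96 and -2.49 on control A. Pcx, which is abundant in fat, gave 1.56, 0.73, 0.46 and 1.16 in the same order, and the part of fat in these values was not tested. The regenerating and embryonic muscle list of 33 probes held Ryr3 as its one call. On all 4 arrays 2 of its probes were above 0 (6.06%) and 3 below (9.09%). The immediate early and stress list of 32 held 0 calls, with 2 above and 2 below (6.25% each). These shares were near those of all probes, 6.93% above and 7.45% below. Erythroid, lymphocyte, Schwann cell and neuromuscular junction lists held 0 calls, and none of the 27 Schwann cell and nerve probes was on one side of 0 on all 4 arrays.

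Compared with the other steps of the loop, that from 2.5 to 4 weeks held 21 called probes over both strains, against 71 from 1 to 2.5 weeks, 63 from 6 to 8 weeks, 13 from 14 to 20 weeks and 0 in each of the steps from 4 to 6, 8 to 10, 10 to 12 and 12 to 14 weeks. In mdx it held 14, against 8 in the step before and 10 in the step after. In control it held 4, against 130 and 0. A count does not test one step against another, and consecutive steps share animals.

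Later levels are given here at 8 and 20 weeks, relative to 2.5 weeks. Sox17 stood at -0.40 (SE 0.16) in mdx and -0.93 (SE 0.16) in control at 4 weeks. At 8 weeks it stood at -0.45 and -1.11, and at 20 weeks at -0.50 and -0.79. Kcne1l went on from -1.74 at 4 weeks to -2.61 (SE 0.33) at 8 weeks in control and from -1.02 to -1.54 in mdx. At 20 weeks Kcne1l stood at -0.98 (SE 0.30) in control and -1.81 (SE 0.30) in mdx. Cd74 rose in this step in mdx and stood at 2.12 (SE 0.34) at 8 weeks, while control reached 1.04 (SE 0.34). Ccl8 stood at 2.28 and 1.00 at that age (SE 0.40 in each). By 20 weeks the changes since 2.5 weeks were closer between the strains, at 1.645 in mdx and 1.508 in control for Cd74 and 1.68 and 1.43 for Ccl8. S100a4 stood at 1.94 (SE 0.34) in mdx and -0.051 (SE 0.34) in control at 8 weeks. At 20 weeks it stood at 1.44 and 0.57 (SE 0.31 in each).

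**Figure D5:**
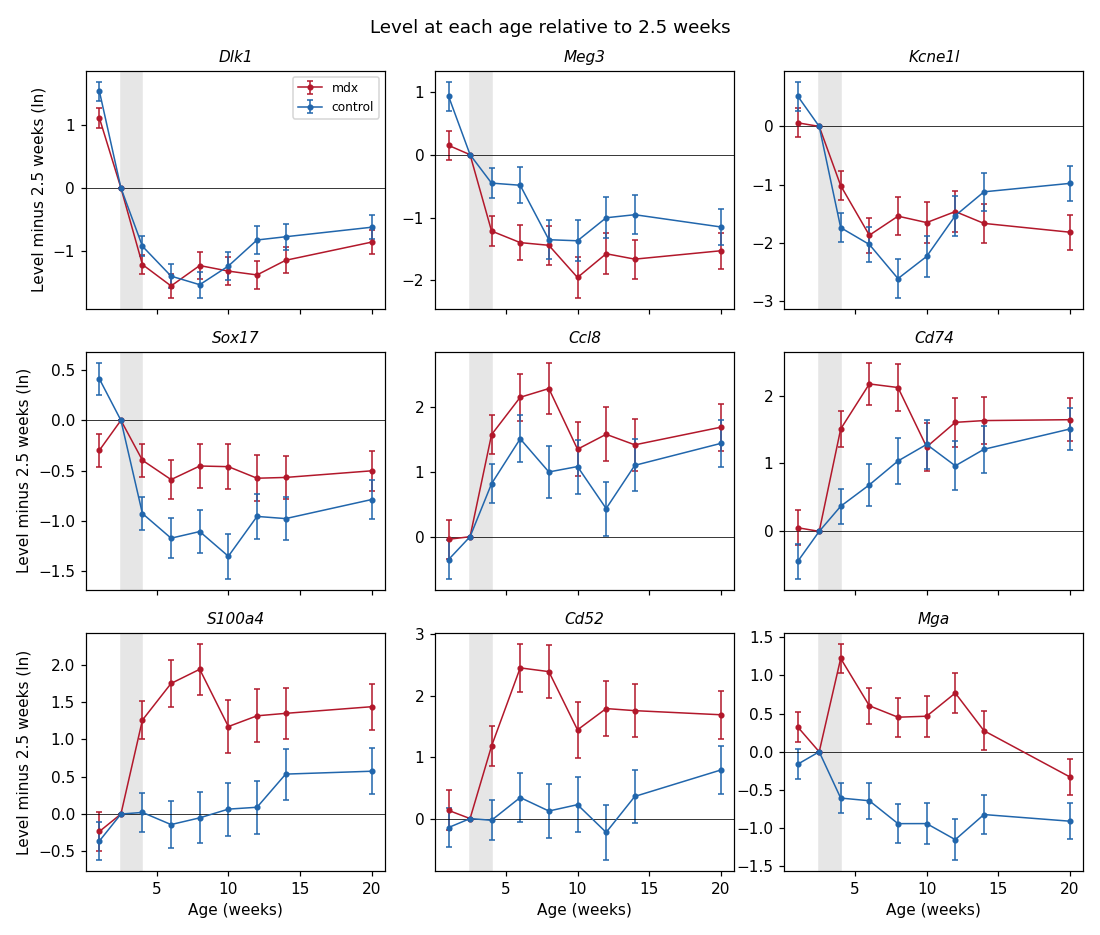
Level at each age relative to 2.5 weeks (natural log, vertical axis) against age in weeks for 9 genes in mdx (red) and control (blue). Points are fitted values with their SE, all set against the same animals of 2.5 weeks, which stand at 0, and the grey band marks 2.5 to 4 weeks. Dlk1 lies lower at 4 than at 2.5 weeks in both strains, and S100a4 and Cd52 stand above 1 in mdx from 4 weeks on while control lies near 0 at 4 weeks.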

How the data were processed

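Hindlimb muscle RNA of mdx and control mice had been hybridised to two-colour oligonucleotide arrays in a loop over age. The authors extracted spots with GenePix Pro, subtracted local background and normalised all arrays together by variance stabilisation (VSN), and the deposited values are natural log ratios of channel 1 over channel 2 for 15552 spots, 2 for each of 7776 positions. Of these positions, 938 had no gene name and were left out, and the rest formed 6754 probes by accession (6747 with 1 gene symbol, 7 with several). Columns were matched to samples by the labels, and 0 were left unmapped. Arrays with the 2.5-week sample in channel 1 were turned in sign, and the log base and direction were checked against a supplementary table over 815 accessions (correlation across genes 0.661 in mdx and 0.584 in control). No count or depth underlies an array value, and the number of arrays limits the precision.

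Age effects within each strain, 1 dye term per strain and the covariance of arrays that share an animal (variance ratio 0.27, by restricted maximum likelihood) were fitted to all 36 arrays with limma 3.58.1 in R 4.3.3 (18 residual and 7.328 prior degrees of freedom). The change itself equals the mean of the arrays of this step. Comparisons were the change over both strains, in each strain, and mdx minus control. The study's own test compares strains at one age and needs intensities, which ratios do not hold. Alternatives changed the scale, centring, covariance, dye term, replicate letter, spots, variance, arrays and threshold.

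Genes are named where they passed, where both arrays of one strain were past 0.69 and both of the other within 0.35, and, in each list, for the up to 4 largest changes over both strains and up to 3 largest differences. List members on one side of 0 on all 4 arrays, and genes past 0.35 on all 4, were named after their values were seen. The arrays, gene lists and tests were chosen with earlier results of these data known. Promoters are RefSeq's (GRCm38.p6), found by symbol. The table gave no entry used here for Sox17, Sox7, Hey1, Tcap and Clu.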

Additional observations from a re-analysis of the deposited data

Results flagged for a closer look

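The change of Mga differed between the strains by a direct test of the difference: 1.83 on the natural log scale (SE 0.27, adjusted p = 0.0031 from limma), with 1.09 and 1.36 on the mdx arrays and -0.57 and -0.64 on the control arrays.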

How the results depend on the processing

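The calls over both strains, in mdx, in control and for the difference numbered 21, 14, 4 and 1. They numbered 10, 8, 2 and 1 with 1 dye term for both strains, 1, 1, 1 and 0 with no dye term, 13, 8, 5 and 1 with each probe's own variance, and 7, 4, 3 and 1 at a Bonferroni threshold. With every array at equal spread they numbered 26, 71, 0 and 2, and with the second spot alone 16, 15, 10 and 2. In the 4 arrays alone limma called 0 in each comparison, where 394, 315, 281 and 188 probes had an unadjusted p under 0.05. The difference had 76 such probes with no dye term, and the change in control 235 at equal spread, where limma also called 0. Leaving out 1 array at a time gave 14 to 37 calls over both strains, 16 to 50 in mdx, 5 to 36 in control and 7 to 23 for the difference, and the lone array left in a strain was assumed to vary like the others. Over both strains, 12 of the 21 genes were called again without mdx A, 7 without mdx B, 9 without control A and 15 without control B. All 21 had the same sign under each alternative. This was fixed in advance where only the covariance, dye term, replicate letter, variance or threshold changed, because the estimate stayed the same. With an array left out it could hardly differ, since all 21 lay on one side of 0 on each of the 4 arrays. The cause of the shifts in the counts was not tested.

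Among single genes, 3 values changed sign: the difference for Adam5 (-0.16, first spot alone), the change in mdx of Polm (0.19, first spot alone) and the difference for the Dp260 probe of Dmd (-0.26 to 0.045 with 1 array left out). Gene list medians moved by less than the spread between arrays in 485 cases and by more in 55. The 485 include every case in which only the dye term changed, where the estimates stayed the same and no median could move. The letters A and B pair no animals across strains: the contrast of A with B correlated at 0.0685 across probes between mdx and control. With the letter as a replicate block the calls numbered 17, 15, 3 and 1. List counts with 1 array left out were added after the data were seen.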

Other observations

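A few genes stood apart on a single array. Apoc1, an apolipoprotein of liver, fat and macrophages, gave 2.63 and 1.46 in mdx but -1.38 and 1.20 in control, and Hp, the gene of haptoglobin, 1.99 and 1.05 against -0.14 and 0.88. Car3, the carbonic anhydrase of slow fibres and fat, gave 2.597 on mdx A and 0.28 on mdx B against 0.96 and 1.26 in control, with an adjusted p of 0.204 over both strains from limma. Gsk3b and Pik3ca, which act in insulin signalling, were at -2.11 and -1.92 on mdx B and between -0.22 and 0.36 on the other 3 arrays. Adam12, a protease of regenerating muscle, was at -2.41 on control B and between -0.12 and 0.0013 on the other 3. These genes were chosen after their values were seen.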
